A study of Mus musculus with 4 samples.

Results

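Germline and meiosis genes were followed as a group of 31 genes, out of 24453 gene symbols counted, in RNA of epidermal cells sorted from newborn mouse skin. The members were listed by name for their roles in germ cells, among them chromosome axis proteins, recombination factors and proteins of the piRNA pathway. They and the lists compared below were chosen with earlier results of these data known, so their shares beside all genes are not those of a blind choice. Each of the 31 symbols was found in the count files. Back skin was taken at postnatal day 0, and interfollicular cells with EpCAM, Sca1 and high α6-integrin on their surface were sorted. The 2 mutant libraries came from Ring1a-/- Ring1b-/I53A mice, which lack Ring1a. For the related gene Ring1b they carry a null allele and the I53A allele, whose product is known as catalytically inactive. The 2 control libraries are labelled as control without a genotype, and no source used here gives the strain, the driver of any conditional deletion or the number of animals per library. Nothing states that the libraries of a group came from separate animals, so the p-values measure the spread between these samples, which may be technical. Values of a group are given for replicate 1 and then replicate 2.

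Ring1a and Ring1b are the enzymes of Polycomb repressive complex 1 (PRC1), which places ubiquitin on histone H2A. Germline genes are normally switched off in the body's other tissues. Many have CpG-rich promoters that carry DNA methylation in somatic cells, and a variant PRC1 that holds Pcgf6, Mga, Max, L3mbtl2 and E2f6 is known to bind and silence a set of them in embryonic stem cells. In germ cells, meiotic cohesins and axis proteins fold the chromosomes, the synaptonemal complex joins homologues, Dmc1 repairs the programmed breaks, and piRNA proteins silence transposons.

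Total counts ran from 15505018 to 21543385 per library. Ring1, the gene of Ring1a, fell from 28.7 ± 6.43 to 2.73 ± 0.257 CPM (reads of a gene relative to the scaled library size, mean ± SD, n = 2 each). Its log2 fold change of mutant over control was -3.38 ± 0.31, where ± is the SE of the fit (edgeR quasi-likelihood test, adjusted p = 0.000172), and it was low in both libraries labelled as mutant. The 10 epidermal markers, Krt5 and Krt14 among them, had reads in every library. Their summed level was 30445 and 34495 CPM in the controls and lower in both mutants, at 23459 and 22291 CPM, and Krt15, a basal keratin, fell by 0.78 on the log2 scale (edgeR adjusted p = 0.0254). By Xist and 4 Y-linked genes both controls and mutant replicate 2 were female and mutant replicate 1 was male. The summed level of 10 fibroblast markers was 1499 and 1558 CPM in the controls and 2196 and 2000 CPM in the mutants, and of these Dcn, a matrix proteoglycan, rose (log2 fold change 0.60 ± 0.15, edgeR adjusted p = 0.0446). The part of either shift in the results below was not tested. In such bulk samples, more cells that express a gene and more RNA per cell cannot be told apart.

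Most of the germline genes stayed at or near 0 reads in mutant epidermis, while a few rose from near silence. Rbm46, an RNA-binding protein that germ cells need to enter meiosis, rose from 3 and 0 reads in the controls to 345 and 541 reads in the mutants. Dmc1, the meiotic recombinase, rose from 1 and 9 reads to 59 and 62 reads. Tdrd1, a tudor-domain scaffold for piRNA proteins, was already transcribed in control epidermis, at 25.8 and 45.9 CPM, and rose to 75.4 and 88.5 CPM. Of the 11 members that passed the low-count filter, these 3 rose, none fell and 8 did not pass the test, where 6.71% of all 14550 tested genes passed the test, 5.68% rising and 1.04% falling. By the same test 7 of the 11 had an unadjusted p under 0.05, none of them lower, and 18.7% of all tested genes reached this in either direction. DESeq2 and limma-voom also called 0 lower. Of the 11, 5 reached the filter cutoff in both mutants but not in both controls, Rbm46 and Dmc1 among them. The number that rose and the lack of lower members were thus partly set by the filter. Of the 5 members that the controls alone would keep, 1 rose. The other 20 members had too few reads to be tested.

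The promoters of the 3 genes that rose, and that of Hormad1, the first listed member with no read in any library, are shown so that their CpG content and motifs can be compared. The sequences are RefSeq windows on GRCm38.p6, 5′ to 3′ on the gene's strand, cut to the 250 bases before the annotated start. Capitals mark matches to the E-box CACGTG, which Mga and Max bind, and to the E2F motif TTCCCGC or its reverse complement GCGGGAA. Rbm46 lies at chr3:82876484-82876733, Tdrd1 at chr19:56825959-56826208, Dmc1 at chr15:79605110-79605359 and Hormad1 at chr3:95559427-95559676, with Rbm46 and Dmc1 on the minus strand.
Rbm46: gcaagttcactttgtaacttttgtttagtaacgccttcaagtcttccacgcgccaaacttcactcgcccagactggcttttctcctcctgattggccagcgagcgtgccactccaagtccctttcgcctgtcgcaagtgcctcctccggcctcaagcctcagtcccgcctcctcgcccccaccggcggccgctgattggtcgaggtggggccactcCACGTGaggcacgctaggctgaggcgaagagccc
Tdrd1: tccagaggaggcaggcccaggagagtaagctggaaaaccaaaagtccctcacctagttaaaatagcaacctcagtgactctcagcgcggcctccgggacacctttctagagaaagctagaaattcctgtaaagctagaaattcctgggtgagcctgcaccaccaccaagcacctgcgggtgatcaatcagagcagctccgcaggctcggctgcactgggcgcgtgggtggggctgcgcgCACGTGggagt
Dmc1: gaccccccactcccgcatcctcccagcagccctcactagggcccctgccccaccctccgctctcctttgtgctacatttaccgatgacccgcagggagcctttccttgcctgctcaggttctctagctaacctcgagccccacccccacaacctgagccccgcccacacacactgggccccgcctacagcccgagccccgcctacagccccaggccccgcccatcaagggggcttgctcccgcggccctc
Hormad1: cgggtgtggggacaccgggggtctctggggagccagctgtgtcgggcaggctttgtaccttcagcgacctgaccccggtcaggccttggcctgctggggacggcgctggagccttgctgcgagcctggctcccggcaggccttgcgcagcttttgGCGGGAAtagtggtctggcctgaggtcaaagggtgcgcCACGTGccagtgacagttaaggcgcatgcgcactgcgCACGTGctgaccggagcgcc
Rbm46 and Tdrd1 each had 1 E-box, with its first base at -34 and -11 relative to the first transcribed base. Hormad1, with no reads, had both motifs, and these letters were not found in the window of Dmc1, which rose. Hormad1 does not stand for the other members with no read in any library. Of those, Asz1 and Tex19.1 had neither motif, and Rpl10l and Tuba3b had the E2F motif without an E-box. A match describes the letters only and shows no binding.

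Promoter windows of 300 bases, with 250 before and 50 after the start, were found for 29 of the 31 members. An E-box stood in 13 of them (44.8%), against 7.24% of the windows of all 27025 genes in the table. The E2F motif stood in 10 (34.5%), against 4.66%, and both stood in 5 (17.2%), against 0.463%. The observed over expected CpG ratio had a median of 0.733 in the members and 0.389 in all genes, and 28 of the 29 members were above the median of all genes. Among the 13586 genes within the members' own CpG range, 10.3% had an E-box, 8.03% the E2F motif and 0.839% both, below the members' shares. An E-box was found in 5 of 11 tested members (45.5%) and in 8 of 18 untested members (44.4%), and the E2F motif in 4 (36.4%) and 6 (33.3%). Both strands were searched.

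**Figure D1:**
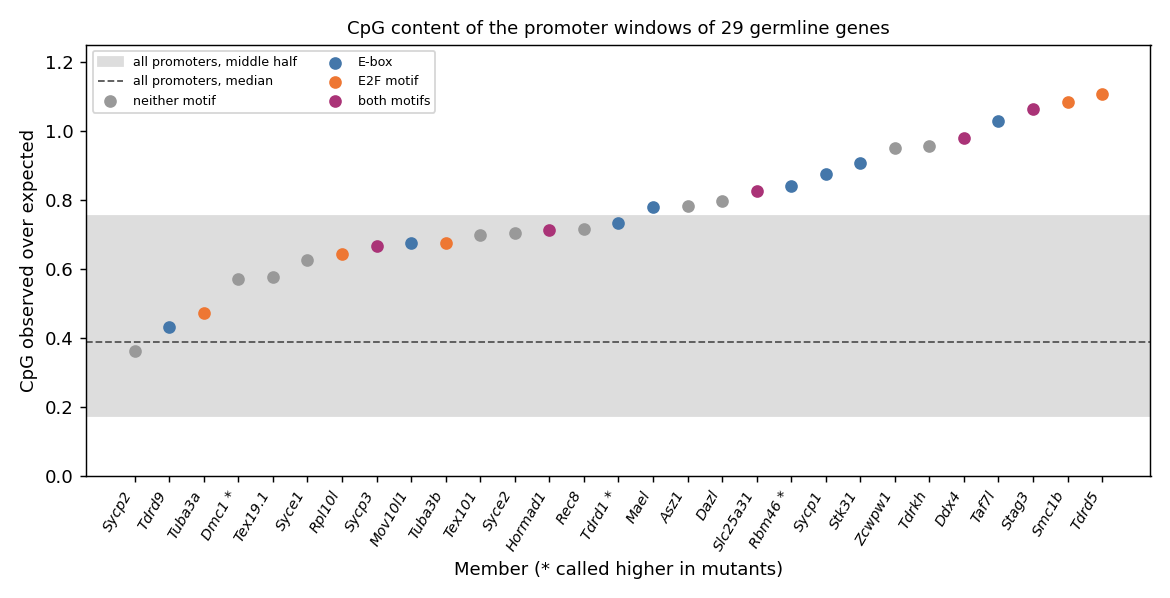
Observed over expected CpG ratio (y axis) of the promoter window of each of 29 members (x axis), coloured by the motifs found, with the median (dashed) and the quartiles (grey band) of all 27025 windows. The members ran from 0.363 (Sycp2) to 1.11 (Tdrd5), with the 3 genes that rose (asterisk) at 0.571, 0.733 and 0.840.

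Counting the libraries with reads, 5 members were silent in all 4 libraries (Hormad1, Asz1, Tex19.1, Rpl10l and Tuba3b), 3 were read in both mutants and in no control (Tex11, Dazl and Tex101), and 20 were read in both groups. Sycp1 and Syce1 were read in mutant replicate 2 alone, and Slc25a31 in control replicate 2 alone. Mutant replicate 2 was the deepest library, with 21543385 counts. It had a read for 25 members, against 18 and 16 in the controls and 17 in mutant replicate 1, so patterns of 1 or a few reads depend on depth. Among all symbols 19.5% had no reads in any library and 1.19% were read in both mutants and in no control, against 16.1% and 9.68% of the members. The reverse, reads in both controls and in no mutant, was found for 0 members and 0.532% of all symbols. The genes read only in mutants had few reads. Tex11, a synapsis protein encoded on the X chromosome, had 1 read in each mutant, and Tex101, a surface protein of sperm, had 1 and 3. Dazl, an RNA-binding protein that licenses germ cells for meiosis, had 13 reads in mutant replicate 1 and 1 in mutant replicate 2. Its pooled mutant level was 3.87-fold that of pooled controls set to a floor of 3 counts, which is no lower limit for each mutant. In mutant replicate 2 Dazl was at 0.0441 CPM, below the level of 3 counts in either control (0.179 and 0.199 CPM). All but 1 of its reads came from mutant replicate 1. A count of 0 allows up to 3 counts, or 0.132 to 0.199 CPM depending on the library, for counting error only. With a minimum of 10 reads, 4 members (Rbm46, Dmc1, Smc1b and Tdrd5) reached it in both mutants and in neither control, as did 1.48% of all symbols.

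**Figure D2:**
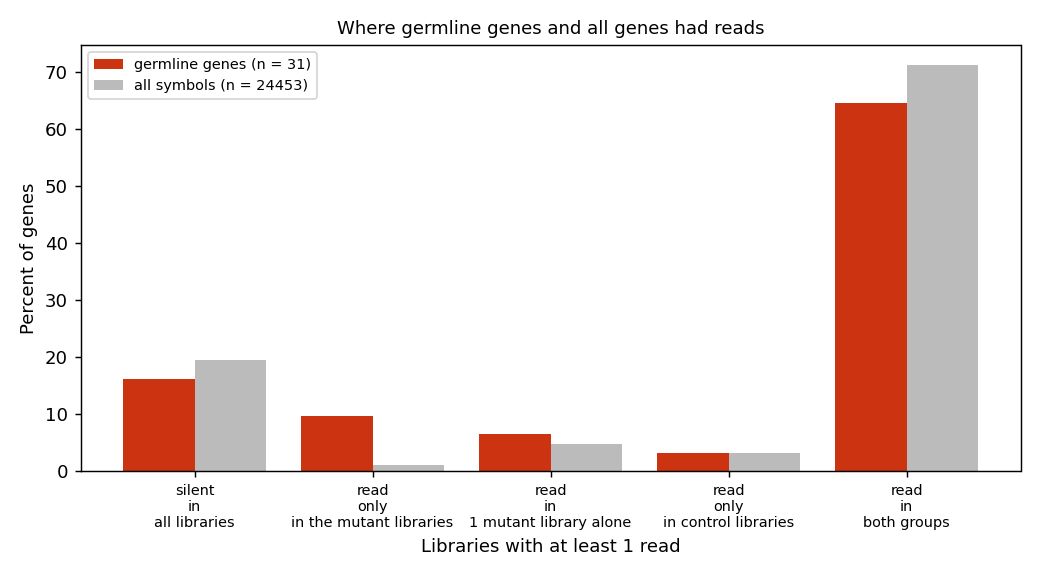
Percent of genes (y axis) by the libraries in which they had at least 1 read (x axis), for the 31 germline genes (red) and all 24453 symbols (grey). Members read in both groups made up 64.5% of the list and 71.3% of all symbols.

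Among the proteins of the meiotic chromosome axis, none passed the test. Smc1b, the cohesin ring subunit made for meiosis, had 3 and 6 control reads and 37 and 38 mutant reads, or 0.179 and 0.398 CPM against 2.35 and 1.67 CPM. Both mutants lay above both controls, but the log2 fold change of 2.77 ± 0.78 missed the threshold (edgeR quasi-likelihood test, adjusted p = 0.0632). It passed in 4 of 15 alternative settings. Stag3, the cohesin subunit that partners it, was read at 3.63 and 4.97 CPM in the controls and at 8.14 and 6.79 CPM in the mutants, again without overlap (log2 fold change 0.79 ± 0.36, adjusted p = 0.271, edgeR). Rec8, the cleavable meiotic cohesin, had 2 and 12 reads in the controls and 4 and 24 in the mutants, so the groups overlapped. Its log2 fold change was 0.71 ± 1.00 (adjusted p = 0.794, edgeR) and turned to -0.15 without control replicate 1 and to -0.77 without mutant replicate 2. The axis protein Sycp3 had 23 and 50 reads in the controls and 20 and 50 in the mutants (log2 fold change -0.35 ± 0.59, adjusted p = 0.833, edgeR), the only tested member with a value below 0, and 0.39 without control replicate 2. Its exons share 660 bases with Chpt1 on the other strand, and the strand setting of the counts is not given in the sources used here. Sycp2 had 1 read in control replicate 1 and 3 in mutant replicate 2.

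Of the somatic counterparts, Smc1a was at 494 and 441 CPM in controls and mutants, Rad21 at 284 and 280 CPM and Stag2 at 136 and 130 CPM (group means). None of the 14 tested counterparts of members, fixed as a list, passed the test in either direction, with a median log2 fold change of -0.04 against -0.01 over all tested genes. Per kilobase of the longest annotated transcript, the mutant mean was 0.498 CPM for Smc1b and 94.1 CPM for Smc1a.

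The synaptonemal complex was represented by Syce2 alone among tested members. Syce2, a protein of the central element, stood at 18.2 and 20.6 CPM in the controls and at 36.1 and 24.6 CPM in the mutants. The groups did not overlap, but the mutants differed from each other by more than the gap between groups, and the log2 fold change of 0.64 ± 0.24 missed the threshold (adjusted p = 0.168, edgeR quasi-likelihood test). It passed without mutant replicate 2 (adjusted p = 0.0137, edgeR). Sycp1, which forms the transverse filaments, had 1 read in all, and Syce1, a further central element protein, had 2. Neither had a read in the controls, where Syce2 had 306 and 311. The control mean of Syce2 per kilobase, 11.5 CPM, exceeded that of 65.5% of tested genes.

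Recombination was represented by Dmc1 and Zcwpw1. Dmc1 was at 0.0595 and 0.596 CPM in the controls and at 3.75 and 2.73 CPM in the mutants, which did not overlap. The means were 0.328 ± 0.380 and 3.24 ± 0.722 CPM (SD, n = 2 each), with a log2 fold change of 3.31 ± 0.78 (edgeR quasi-likelihood test, adjusted p = 0.0286). The call was lost, by edgeR adjusted p unless named, without control replicate 1 (adjusted p = 0.362) or control replicate 2 (0.0538), with limma-voom (0.0706) and with edgeR's earlier form of the fit (0.0572). The newer form was made the main one after both had been run, so the edgeR call of Dmc1 rests on that choice. DESeq2 also called it higher. Zcwpw1, a reader of histone marks at recombination sites, had 65 and 31 reads in the controls and 59 and 122 in the mutants, which overlapped (log2 fold change 0.63 ± 0.45, adjusted p = 0.535, edgeR). Its exons share 468 bases with Pilra on the other strand.

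In the piRNA pathway 1 of the 8 members rose, Tdrd5 was tested and did not pass, and 6 had too few reads to test. Tdrd1 had 434 and 692 reads in the controls and 1185 and 2009 in the mutants, with means of 35.8 ± 14.2 and 82.0 ± 9.30 CPM (SD, n = 2 each) and the log2 fold change was 1.20 ± 0.24 (edgeR quasi-likelihood test, adjusted p = 0.0144). The controls differed from each other by more than the mutants did, and without control replicate 1 the call was lost (log2 fold change 0.83, adjusted p = 0.179). Its control mean per kilobase, 6.91 CPM, exceeded that of 52.5% of tested genes, and its mutant mean, 15.8 CPM, that of 74.1%. Tdrd5, a further tudor protein of germ granules, had 0 and 6 reads in the controls and 11 and 40 in the mutants (log2 fold change 2.76 ± 1.10, adjusted p = 0.198, edgeR), and it passed without mutant replicate 1 (0.0476). Its exons share 176 bases with the antisense gene 4930518J20Rik. Piwil2, a PIWI protein that binds piRNAs, had 1 and 4 reads against 16 and 5, and Tdrkh, which helps trim piRNAs, 3 and 3 against 5 and 9. The exons of Tdrkh share 2255 bases with Oaz3 on the other strand. Mov10l1, the helicase that feeds piRNA precursors, had 4 and 0 reads against 0 and 1, Tdrd9 3 and 0 against 0 and 1, Mael 0 and 1 against 0 and 2, and Asz1 none. In each of the 4 libraries Tdrd1 had more reads than the other piRNA members named here.

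Among the RNA-binding proteins of germ cells, Rbm46 had the largest log2 fold change of the 11 tested members. It was at 0.179 and 0 CPM in the controls and at 22.0 and 23.8 CPM in the mutants, far apart. The ratio of pooled counts was 245 with a 95% exact binomial interval from 83.6 to 1191, which covers counting error only. The log2 fold change was 7.83 ± 0.59 (edgeR quasi-likelihood test, adjusted p = 2.52e-05), and the adjusted p was at most 0.00398 over 15 alternative settings. Per kilobase the mutant mean of 10.8 CPM exceeded that of 64.1% of tested genes. Ddx4, the helicase Vasa that marks germ cells, stayed near silent, with 1 and 2 reads in the controls and 4 and 8 in the mutants.

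Of the other testis genes, Taf7l, a testis form of a general transcription factor subunit, had 14 and 1 reads in the controls and 43 and 37 in the mutants, or 0.833 and 0.0663 CPM against 2.74 and 1.63 CPM. The groups did not overlap (log2 fold change 2.15 ± 0.81, adjusted p = 0.173, edgeR quasi-likelihood test). Taf7l lies on the X chromosome, and its level was above both female controls in the male and in the female mutant library. Stk31, a tudor-domain kinase of germ cells, had 6 and 2 reads in the controls and 0 and 1 in the mutants, and was the only member with both mutants below both controls (15.9% of all symbols). Tuba3a, a testis tubulin, had 2 and 0 reads against 0 and 1. It and Tuba3b are near-identical copies, so reads between them are uncertain. Slc25a31, the adenine nucleotide carrier of sperm, had 2 reads in control replicate 2, while Rpl10l, a testis ribosomal protein, and Tex19.1, which restrains retrotransposons, had none.

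**Figure D3:**
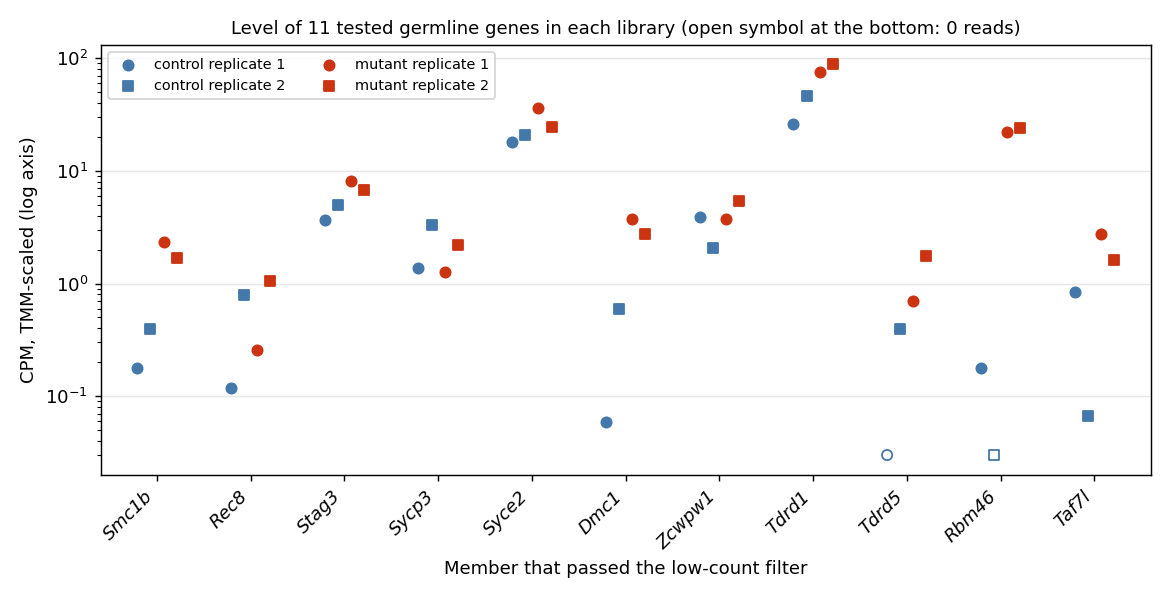
Level in CPM on a log axis (y axis) of each of the 11 tested members (x axis) in 2 control (blue) and 2 mutant (red) libraries, with open symbols for 0 reads. In 8 members both mutants lie above both controls, as in 24.5% of all 14550 tested genes, with the widest gap at Rbm46. Of these 8, 5 reached the filter cutoff in both mutants but not in both controls. Rec8, Sycp3 and Zcwpw1 overlap.

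**Figure D4:**
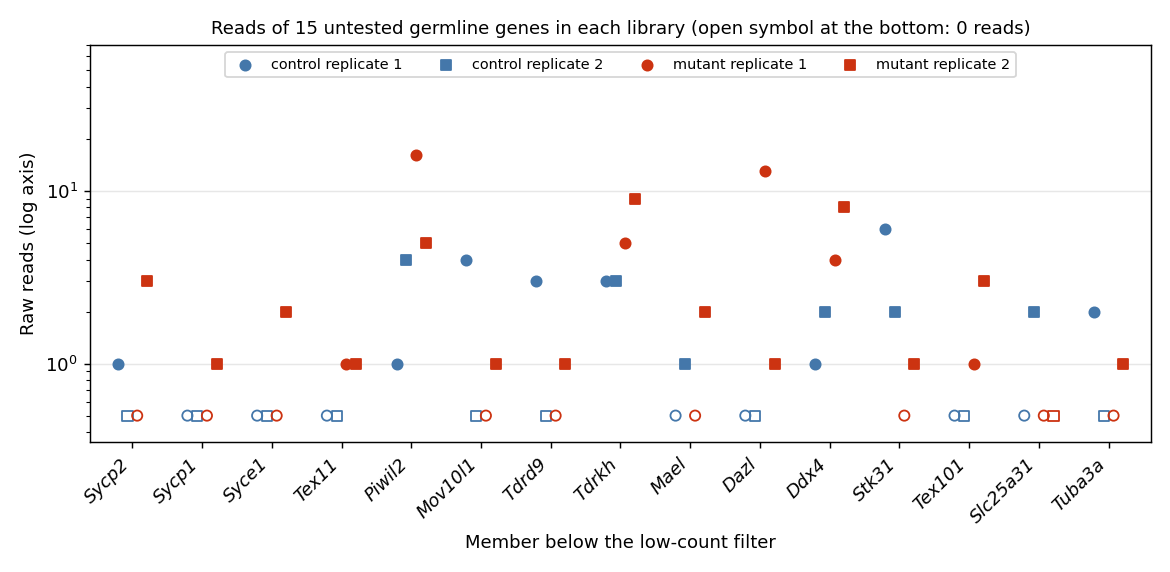
Raw reads on a log axis (y axis) of the 15 untested members that had a read (x axis) in each library, with open symbols for 0 reads. No value exceeds 16 reads, that of Piwil2 in mutant replicate 1, and Dazl has 13 in the same library.

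The members that passed the filter are not a fair sample of the list. Of the 11, 5 reached the filter cutoff in both mutants but not in both controls (Smc1b, Dmc1, Tdrd5, Rbm46 and Taf7l). Taf7l also reached it in control replicate 1. The others reached it in neither control and so had to be higher in the mutants. Rec8 passed with 1 library of each group. The controls by themselves would have kept 5 members, Stag3, Sycp3, Syce2, Zcwpw1 and Tdrd1. Of these, 1 rose and 4 had a log2 fold change above 0, with a median of 0.64. Over the 13444 tested genes that the controls alone would keep, the median was -0.03 and 5.18% rose. Both mutants lay above both controls for 13 of the 31 members, which compares with 17.4% of all symbols. Summed over the list, the members made up 55.5 and 80.0 CPM in the controls and 159 and 162 CPM in the mutants. Tdrd1, Syce2 and Rbm46 gave 79.6% to 84.6% of these reads in each library.

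**Figure D5:**
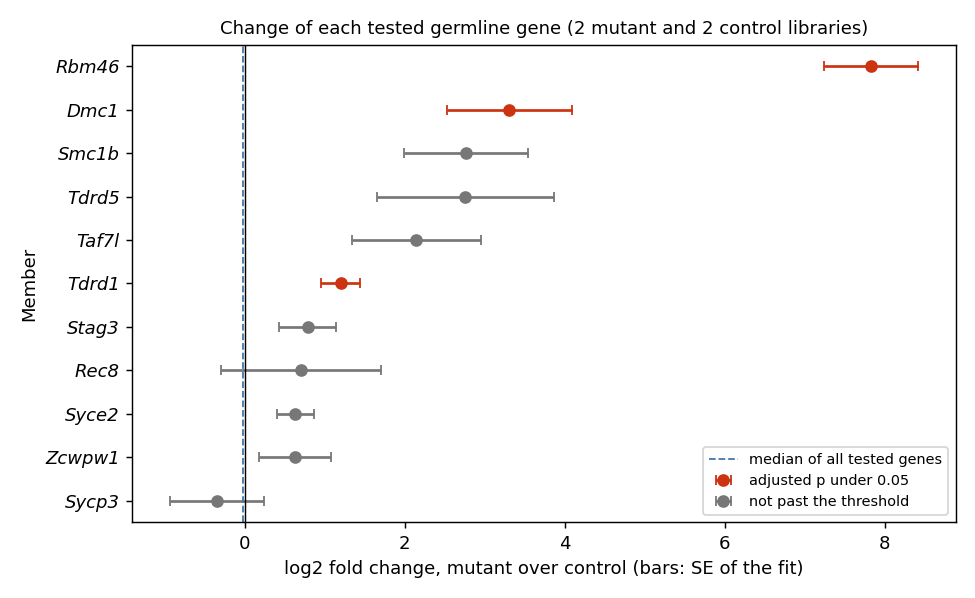
Log2 fold change of mutant over control (x axis) of each tested member (y axis) with its SE, in red where the adjusted p was under 0.05, and the median of all tested genes (dashed). Rbm46, Dmc1 and Tdrd1 passed the threshold at 7.83, 3.31 and 1.20, and Sycp3 is the only value below 0, at -0.35.

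Other germline genes were read from 5 lists of 70 genes, of which 66 were in the files, 14 had no reads and 31 were tested. Of these 5 rose, none fell and 26 did not pass the test, with a median log2 fold change of 0.19, where 5.68% of all tested genes rose. Of the 22 that the controls alone would keep, 2 rose (Spo11 and Tex15), where 5.18% of all such genes did. Ccdc36, Elavl2 and 4930447C04Rik passed the filter through the mutant libraries alone. Genes of these lists were called lower in 2 settings, 1 gene with offsets for GC content and length and 2 genes with these and the replicate block. Spo11, the enzyme that makes meiotic DNA breaks, was read in control epidermis at 18.1 and 19.7 CPM and rose to 37.4 and 38.3 CPM in the mutants (log2 fold change 1.00 ± 0.19, adjusted p = 0.0102, edgeR quasi-likelihood test). Ccdc36, also named Iho1, which places those breaks, rose from 3 and 4 reads to 48 and 91 (log2 fold change 3.99 ± 0.72, adjusted p = 0.0065, edgeR). These were the 2 of 16 tested recombination genes that rose. Elavl2, an RNA-binding protein of neurons and oocytes, rose from 2 and 7 reads to 81 and 133 (log2 fold change 4.26 ± 0.66, adjusted p = 0.003, edgeR), and was the 1 of 6 tested RNA regulators that did. Tex15, which acts with piRNAs in silencing transposons, rose from 6.91 and 8.68 to 18.3 and 21.8 CPM in the mutants (log2 fold change 1.37 ± 0.26, adjusted p = 0.011, edgeR). The synaptonemal complex gene 4930447C04Rik, also named Six6os1, rose from 7 and 9 reads to 60 and 71 (log2 fold change 2.75 ± 0.62, adjusted p = 0.0243, edgeR). Its exons share 192 bases with Six6. None of the 7 tested genes of the piRNA list passed the test, with Mybl1, a transcription factor of piRNA clusters, at 17.9 and 15.7 CPM. None of the 5 calls held without control replicate 1, and those of Elavl2 and Tex15 alone held without control replicate 2. The call of 4930447C04Rik was also lost with limma-voom.

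None of the tested genes of finished gametes was called. Of 20 spermatid and oocyte genes, 8 had no reads, 4 were tested and 0 passed the test, with Gapdhs, the glycolytic enzyme of sperm, at 10.4 and 6.14 CPM (log2 fold change -0.76 ± 0.29, adjusted p = 0.188, edgeR quasi-likelihood test). Among markers of germ cells as a cell type, 1 of 9 of pluripotent and primordial germ cells and 4 of 8 of meiotic and late germ cells were at 0 in every library. The summed level of the 9 was 81.7 and 78.8 CPM in the controls and 141 and 118 CPM in the mutants. That of the 8 was 38.2 and 32.3 CPM against 54.5 and 51.7 CPM, so both sums were higher in both mutants. Nearly all of the sum of the 8 came from Spo11, already counted in the lists above, and Prdm9. Spo11 rose from a mean of 18.9 to one of 37.9 CPM. Prdm9 did not pass the test, with means of 16.2 and 15.2 CPM (edgeR, log2 fold change -0.11 ± 0.28, adjusted p = 0.901). Prm2 and Acrv1 had at most 3 reads in any library, so the higher sum of the 8 reflects Spo11. Prdm14, Stra8, Prm1, Tnp1 and Zp3 had no reads in any library, Pou5f1 had 1 read in each mutant, and Nanog had 1 and 0 reads in the controls and 4 and 6 in the mutants. Of 5 tested markers of pluripotent and primordial germ cells 2 rose, where 5.68% of all tested genes did. Alpl, 1 of the 2, passed the filter through the mutant libraries alone. Prdm1, also a factor of skin, rose from a mean of 10.9 to one of 25.4 CPM (edgeR, log2 fold change 1.22 ± 0.23, adjusted p = 0.0099). Alpl, an alkaline phosphatase, rose from 0.122 to a mean of 2.07 CPM (edgeR, log2 fold change 4.02 ± 0.89, adjusted p = 0.0169). The part of germ cells in the members' results was not tested.

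Among known repressors of germline genes, Ring1 alone passed the main test. Of the 14 genes of the Pcgf6-containing PRC1, Ring1 fell and 13 did not pass the test. Mga, its DNA-binding scaffold, was at 411 and 462 CPM in controls and mutants, and E2f6 at 49.8 and 53.1 CPM. None of 8 genes of DNA methylation and of histone H3 lysine methylation passed, with a median log2 fold change of -0.29. With offsets for GC content and length, with or without the replicate block, 5 of the 8 were called lower, and 1 was without mutant replicate 2. Dnmt3a, a de novo DNA methyltransferase, was at 354 and 353 CPM in controls and mutants. Dnmt1, the maintenance methyltransferase, was at 294 and 221 CPM (log2 fold change -0.41 ± 0.14, adjusted p = 0.125, edgeR quasi-likelihood test), and passed in 3 of 15 alternative settings.

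The genes next to the 3 members that rose were not called in the main test. Rbm46 spans bases 82837228 to 82876483 of chromosome 3 (GRCm38), and its nearest tested neighbours, Map9 at 442 kb and Plrg1 at 179 kb, had log2 fold changes of -0.14 and -0.13. Dmc1, on chromosome 15 from 79561497 to 79605109, lies between Ddx17 (-0.12) and Fam227a (-0.36). Tdrd1, on chromosome 19 from 56826209 to 56870012, lies 4.02 kb from Ccdc186 (0.11 ± 0.14) and 4.24 kb from Vwa2, which had a log2 fold change of 0.55 ± 0.17 (adjusted p = 0.0866, edgeR quasi-likelihood test). Vwa2 was called higher with DESeq2 and, by edgeR, without mutant replicate 2 (adjusted p = 0.00165).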

How the data were processed

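Per the labels' protocols, total RNA of sorted cells was amplified from small amounts and sequenced as single reads. The deposited values are raw counts, whole numbers for each gene symbol without normalization. Tools in the submitters' processing notes, listed with no role, are HTSeq 0.6.1, TopHat2 2.0.13, DESeq2 1.6.3 and Cufflinks 2.2.1, with build mm10. No source used here gives the annotation or the strand setting.

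Genes passed filterByExpr (minimum count 10, minimum total 15), which left 14550. They were scaled by TMM and compared with edgeR 4.0.16 (R 4.3.3, glmQLFit in its newer form, glmQLFTest, no block, two-sided), with Benjamini-Hochberg adjustment over all tested genes at 0.05. SE comes from the coefficient and its F statistic. CPM values use TMM-scaled library sizes. The newer form was taken as the main fit after both forms had been run, and the earlier form is an alternative added after seeing the data. Other alternatives used DESeq2 1.42.0, limma 3.58.1, other scalings and filters, each library left out, a replicate block, and loess offsets (span 0.5) on GC content and length from GENCODE M21 (97.8% of tested genes matched). The test was checked on simulated data. Gene coordinates come from GENCODE M21 on GRCm38, promoters from RefSeq on GRCm38.p6, using the first window listed for a gene. In 25 of 29 members the bases after the start were found in a GENCODE transcript of the gene. Members and lists were chosen with earlier results of these data known. Named genes outside the members are the called genes of each list with the smallest p, or the most abundant where none was called. Somatic counterparts were set beside members. Silent markers, Pou5f1, Nanog, Prdm9, Prm2, Acrv1, Mga, E2f6 and Dnmt1 were chosen after their values were seen. 1 somatic counterpart is not reported here.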

Additional observations from a re-analysis of the deposited data

How the results depend on the processing

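With 2 libraries a group, leaving out control replicate 1 left Rbm46 as the only called member. The number of members called higher, 3, ran from 1 to 5 with each library left out in turn, and was 5 when offsets for GC content and length were joined to the replicate block (Smc1b and Taf7l added). It stayed between 2 and 4 in the other settings, with 2 under edgeR's earlier form of the fit, which was run first and does not call Dmc1, and no member was called lower in any setting run. Rec8 ranged from -0.77 to 2.53 and Sycp3 from -0.88 to 0.39 (log2 fold change) with a library left out. Replicate numbers were not shown to pair the libraries (correlation of same-numbered deviations 0.0412). With the replicate block 4 members were higher, Smc1b being added (adjusted p = 0.047, edgeR), and all genes gave 1042 higher and 232 lower calls against 826 and 151. The offsets gave 730 higher and 701 lower calls and a median log2 fold change of -0.13 over all genes, against -0.01. Over all genes, leaving out control replicate 1 gave 251 higher and 38 lower calls, and leaving out mutant replicate 1 gave 1202 and 382. Counts of silent members depend on the minimum. With 3 reads, 10 reads or 0.2 CPM in place of 1 read, silent members numbered 11, 18 and 14 in place of 5, and members in both groups 13, 7 and 11 in place of 20. Members read only in mutants numbered 1 with 3 reads and 5 where any 1 mutant library was enough, in place of 3, and 3 to 5 with a library left out. The cause of these shifts beyond the minimum itself was not tested.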
